A study of Mus musculus with 22 samples.

Results

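The PCGF6 and RING1B peaks of wild-type (WT) AhCre crypts were compared with each other. Every PCGF6 peak and every RING1B peak of this tissue was sorted into shared, PCGF6 only or RING1B only by an overlap of at least 1 bp with a peak of the other antibody. The 2 lists held 17163 PCGF6 peaks and 2368 RING1B peaks, together 19531 of the 190797 peaks in the 16 lists of the series. Of these, 1236 PCGF6 peaks and 1228 RING1B peaks were shared, 15927 were PCGF6 only and 1140 were RING1B only. Shared peaks formed 1255 overlapping pairs at 1209 separate places, since a wide peak can meet several narrow ones.

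PCGF6 is the Polycomb RING finger protein that defines the variant Polycomb repressive complex PRC1.6. That complex also holds MGA, MAX, E2F6, TFDP1 and L3MBTL2, whose DNA-binding members bring it to E-box and E2F sequences, and in embryonic stem cells it is known for keeping germline genes silent. RING1B is the ubiquitin ligase subunit that PRC1.6 shares with the other PRC1 complexes, and it places the ubiquitin mark H2AK119ub1 on histone H2A. Canonical PRC1 carries a CBX protein that reads the PRC2 mark H3K27me3 and is known from the CpG islands of silent developmental regulators.

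Crypts are the pits of the small intestinal epithelium that hold its stem and dividing cells. Per the labels, the chromatin was formaldehyde-fixed and came from C57BL/6 mice of genotype WT or Pcgf6 KO. Deletion in AhCre mice is induced with BNF and in Villin mice with Tamoxifen. For crypts used for RNA, the series gives male mice aged 8 to 12 weeks and collection 7 days after induction. Whether the WT mice carried Cre, and whether the mice of the ChIP crypts were treated in the same way, is not stated. The H2AK119ub1 chromatin held a 5% spike of Drosophila S2 chromatin. AhCre crypts of both genotypes were profiled for PCGF6, RING1B and H2AK119ub1. Villin crypts of both genotypes were profiled for RING1B, H2AK119ub1, CTCF (a DNA-binding insulator protein) and RAD21 (a cohesin subunit), and E14 embryonic stem cells (ESC) of genotype WT for PCGF6 and RING1B. With 1 library in every group there was no spread between replicates to measure, and no test was made. The 95% intervals printed with shares are exact binomial (Clopper-Pearson) and cover counting error only, not the spread between mice. Peak lists hold no expression, so the labelled cell type could not be checked against its markers, and they hold no read counts, so the depth is unknown. The score of a peak is the authors' value, on a −log10 scale, of either p or q, and all scores were 10 or more. Because the PCGF6 list was 7.25 times as long as the RING1B list, depth, antibody and occupancy cannot be told apart in a missing peak, and scores were ranked within a list only. The 14 other lists took no part in sorting the peaks.

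Promoter sequences of a few named genes of each class are given first. They are RefSeq windows of 300 bases on GRCm38.p6 (mm10), from 250 bases before to 50 bases after a gene start, read in the direction of the gene. Capitals mark the E-box CACGTG, the E2F site TTCCCGC, the ETS site CCGGAAG and the NRF1 site GCATGCGC, searched on both strands. No motif contains another, and the palindromic E-box was counted once per place. A match is a description of letters and not a binding site. The genes were picked from the named genes after their sequences had been seen, so they do not stand for their classes. The E-box was in only 13.5% of all windows with both antibodies and 12.2% of those with PCGF6 only.

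The first set holds starts with both antibodies. Mga encodes the DNA-binding scaffold of PRC1.6 and had the highest PCGF6 score of all. Atic, Paics and Ppat encode purine synthesis enzymes, and Paics and Ppat start on opposite strands under a single pair of peaks. Dvl2 encodes a Wnt signal transducer.
Mga (chr2:119896978-119897277, + strand): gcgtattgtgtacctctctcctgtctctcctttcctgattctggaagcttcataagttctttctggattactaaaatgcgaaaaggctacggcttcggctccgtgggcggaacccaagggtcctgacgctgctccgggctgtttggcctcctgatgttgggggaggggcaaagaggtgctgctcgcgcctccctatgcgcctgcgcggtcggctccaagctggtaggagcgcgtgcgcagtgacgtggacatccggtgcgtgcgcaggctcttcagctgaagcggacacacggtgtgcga
Atic (chr1:71556906-71557205, + strand): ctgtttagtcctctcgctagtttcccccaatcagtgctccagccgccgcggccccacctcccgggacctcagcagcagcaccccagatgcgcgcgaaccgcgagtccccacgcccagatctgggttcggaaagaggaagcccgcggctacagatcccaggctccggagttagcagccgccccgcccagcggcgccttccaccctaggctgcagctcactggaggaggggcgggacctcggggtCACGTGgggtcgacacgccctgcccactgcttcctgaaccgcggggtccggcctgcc
Paics (chr5:76951052-76951351, + strand): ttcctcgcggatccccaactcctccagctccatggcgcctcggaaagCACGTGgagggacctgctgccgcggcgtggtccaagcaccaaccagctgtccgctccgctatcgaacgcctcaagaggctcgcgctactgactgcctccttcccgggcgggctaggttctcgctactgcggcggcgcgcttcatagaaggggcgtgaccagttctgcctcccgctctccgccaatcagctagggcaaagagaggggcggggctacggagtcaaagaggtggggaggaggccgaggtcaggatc
Ppat (chr5:76951529-76951828, - strand): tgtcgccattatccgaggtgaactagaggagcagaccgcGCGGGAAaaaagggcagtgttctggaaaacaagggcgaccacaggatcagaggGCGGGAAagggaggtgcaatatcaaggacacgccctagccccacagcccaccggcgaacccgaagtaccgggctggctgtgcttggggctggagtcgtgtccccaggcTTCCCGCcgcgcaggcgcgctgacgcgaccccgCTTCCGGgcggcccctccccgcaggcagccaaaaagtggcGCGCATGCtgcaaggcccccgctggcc
Dvl2 (chr11:70000342-70000641, + strand): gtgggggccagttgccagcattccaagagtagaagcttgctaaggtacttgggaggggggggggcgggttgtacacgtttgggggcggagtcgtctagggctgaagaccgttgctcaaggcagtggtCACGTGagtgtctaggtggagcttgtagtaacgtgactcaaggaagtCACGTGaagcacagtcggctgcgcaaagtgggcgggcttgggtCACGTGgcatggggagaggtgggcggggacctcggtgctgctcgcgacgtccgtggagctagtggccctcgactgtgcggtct

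The second set holds starts with PCGF6 only, at the Mediator subunit gene Med31 and at Sec23ip, which encodes a partner of the vesicle coat protein SEC23.
Med31 (chr11:72215543-72215842, - strand): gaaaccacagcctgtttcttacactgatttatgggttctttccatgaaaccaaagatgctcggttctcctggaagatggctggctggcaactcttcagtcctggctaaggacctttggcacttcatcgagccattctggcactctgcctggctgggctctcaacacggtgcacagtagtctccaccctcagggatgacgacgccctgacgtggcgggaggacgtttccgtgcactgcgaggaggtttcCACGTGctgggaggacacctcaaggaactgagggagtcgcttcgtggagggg
Sec23ip (chr7:128744620-128744919, + strand): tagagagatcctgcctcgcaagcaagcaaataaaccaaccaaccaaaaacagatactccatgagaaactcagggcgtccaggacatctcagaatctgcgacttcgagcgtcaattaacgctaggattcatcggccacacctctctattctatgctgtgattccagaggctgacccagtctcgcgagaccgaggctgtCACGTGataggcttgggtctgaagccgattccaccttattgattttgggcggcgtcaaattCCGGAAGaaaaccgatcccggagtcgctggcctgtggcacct

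The third set holds starts with RING1B only, at the transcription factor genes Runx3 and Dmbx1, which are rich in CpG and hold none of these motifs.
Runx3 (chr4:135152295-135152594, + strand): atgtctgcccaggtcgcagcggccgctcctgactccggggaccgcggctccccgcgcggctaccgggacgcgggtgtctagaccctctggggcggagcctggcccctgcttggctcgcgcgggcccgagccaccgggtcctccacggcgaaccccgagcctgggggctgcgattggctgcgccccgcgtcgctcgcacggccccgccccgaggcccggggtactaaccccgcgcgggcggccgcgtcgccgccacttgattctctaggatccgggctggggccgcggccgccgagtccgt
Dmbx1 (chr4:115939877-115940176, - strand): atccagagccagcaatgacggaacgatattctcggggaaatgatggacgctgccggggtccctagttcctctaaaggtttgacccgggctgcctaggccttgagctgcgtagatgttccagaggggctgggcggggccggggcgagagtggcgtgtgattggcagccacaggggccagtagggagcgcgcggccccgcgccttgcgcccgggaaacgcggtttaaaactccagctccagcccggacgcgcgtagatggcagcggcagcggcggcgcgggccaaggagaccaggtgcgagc

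The shared part was a far larger share of the RING1B list than of the longer PCGF6 list. It was 51.9% of the RING1B list (95% interval 49.8 to 53.9) and 7.20% of the PCGF6 list (6.82 to 7.60). With scores of 20 or more in both lists the shares were 27.9% and 3.41%, and with the PCGF6 list cut to its strongest peaks at the length of the RING1B list they were 17.9% and 17.6%. The median overlap of a pair was 764 bp, which covered 66.4% of the PCGF6 peak and 87.9% of the RING1B peak at the median. In 474 pairs the RING1B peak lay wholly inside the PCGF6 peak and in 243 pairs the reverse held. Few unshared peaks lay just outside the rule: 73 of the 15927 PCGF6-only peaks (0.458%) lay within 1000 bp of a RING1B peak, and 53 of the 1140 RING1B-only peaks (4.65%) lay within 1000 bp of a PCGF6 peak. The least overlap was 2 bp, at Vegfa, the gene of a blood vessel growth factor (PCGF6 score 20.6, RING1B score 16.3), followed by 26 bp at Prr15 and 80 bp at Zfp821. Just outside the rule, the PCGF6-only peaks at P4ha1 (score 11.8) and at Fhod1 and Slc9a5 (score 25.8) lay 11 bp and 147 bp from a RING1B peak.

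Shared peaks were more frequent at high PCGF6 scores and less frequent at high RING1B scores. The PCGF6 score had a median of 26.9 at shared peaks (quartiles 16.1 and 60.0) and 17.9 at PCGF6-only peaks (12.8 and 27.9). Scores above 100 were found in 201 of 1236 shared PCGF6 peaks (16.3%) and in 404 of 15927 others (2.54%). The shared part of the PCGF6 list was 3.30% in its weakest score decile, 9.28% in the ninth and 20.4% in the strongest. For RING1B the median score was 15.4 at shared peaks (quartiles 11.9 and 23.6) and 17.2 at RING1B-only peaks (12.2 and 32.4). The shared part of the RING1B list was 51.7% in its weakest score decile, 63.2% in the third, 36.3% in the ninth and 42.6% in the strongest. Over the 1255 pairs, which share no library but can share a peak, Spearman's rho of the PCGF6 and RING1B scores was 0.00675 and that of their widths 0.0513.

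**Figure D1:**
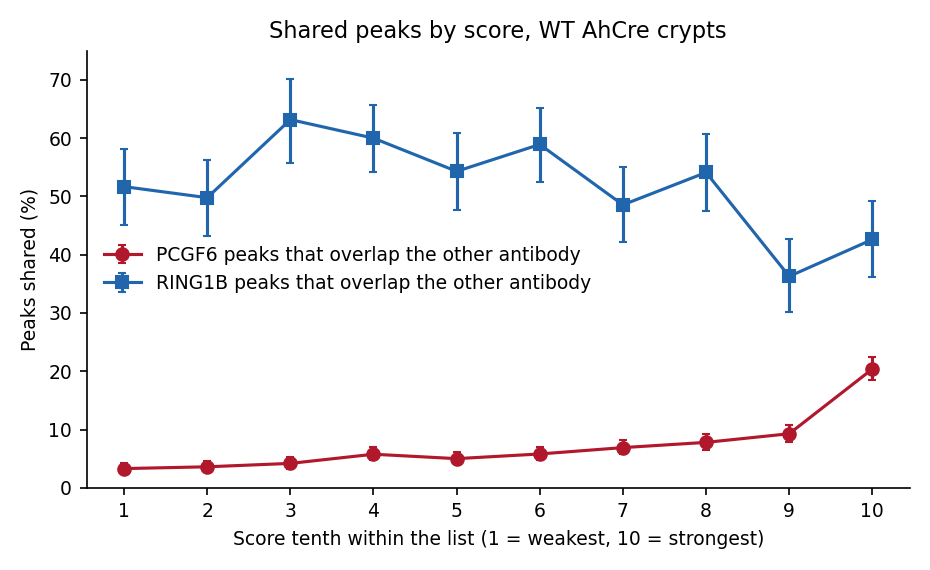
Share of peaks (%, y axis) that overlap a peak of the other antibody, by score decile within each list (x axis, 1 weakest to 10 strongest), for PCGF6 (red circles) and RING1B (blue squares) in WT AhCre crypts; bars are 95% binomial intervals. The PCGF6 line rises from 3.30% to 20.4%, while the RING1B line is 51.7% in the weakest decile and 42.6% in the strongest.

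Widths differed in the same direction as scores. PCGF6 peaks were 1341 bp wide at the median when shared and 1005 bp when not. RING1B peaks were 1077 bp wide when shared and 1398.5 bp when not, and 113 of the 1140 RING1B-only peaks (9.91%) against 74 of the 1228 shared ones (6.03%) were wider than 5 kb. The 5 widest RING1B-only peaks lay over homeobox and paired-box loci. The widest covered 56935 bp of the Hoxd cluster from Hoxd8 to Evx2 (chromosome 2, 74648306 to 74705240), where the RING1B score was 234 in WT and 172 in KO AhCre crypts, 202 in Villin WT crypts and 730 in ESC. Pax3 (39815 bp), Hoxb13 (29752 bp), Dlx1 and Dlx2 (23092 bp) and Nkx2-3 (21279 bp) followed, all of them genes of embryonic patterning. Wide RING1B peaks also stood among the shared ones, such as 43716 bp over the Hoxa genes from Hoxa3 to Hoxa10, 25680 bp at Cdkn2a, which encodes the cell cycle inhibitors p16 and p19, and 25200 bp at Pax6. The PCGF6 peaks inside them were narrow. The Hoxa domain held PCGF6 peaks of 1521 bp and 1008 bp (scores 23.8 and 22.4), and the Pax6 domain held one of 1028 bp (11.5), with none of the 3 in the KO list. The Cdkn2a domain held a PCGF6 peak of 1121 bp at Cdkn2a (30.0, none in KO) and one of 948 bp at the neighbouring inhibitor gene Cdkn2b (30.1 in WT and 12.3 in KO).

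Shared peaks were the most promoter-bound class. A peak was counted at a gene start when it lay within 1 kb of it (for 4395 of 21887 protein-coding genes without a listed start, of either gene end). That held for 75.1% of shared PCGF6 peaks (72.6 to 77.5) and 45.0% of PCGF6-only peaks (44.2 to 45.8). For RING1B it held for 78.6% of shared peaks (76.2 to 80.8) and 59.1% of RING1B-only peaks (56.2 to 62.0). Of all PCGF6-only peaks, a further 9.51% lay within 5 kb of a start and 19.9% elsewhere inside genes. Between genes, 17.3% lay within 50 kb of a start and 8.29% farther out. For RING1B-only peaks these shares were 11.9% within 5 kb, 10.4% inside genes, 12.9% within 50 kb and 5.61% farther out. The PCGF6-only peaks at starts had a median score of 19.8, above the 15.8 to 17.0 of the other places, whereas shared PCGF6 peaks had medians from 25.4 to 29.5 in every place. By chromosome, the shared part of the RING1B list ran from 41.0% on chromosome 13 to 65.0% on chromosome 7 among the autosomes, and it was 6 of 22 peaks on the X chromosome.

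At the level of genes, 1028 of 21887 protein-coding genes (4.7%) had both antibodies at the start, 7732 (35.3%) had PCGF6 only and 661 (3.02%) had RING1B only. In 979 of the 1028 genes with both, a PCGF6 and a RING1B peak overlapped each other. Beside these shares, the Hox and other homeobox lists lay mainly in the RING1B-only class, and the ribosomal protein, proteasome and replication lists mainly in the PCGF6-only class.

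Of the 39 Hox genes, which set position along the body axis, 31 had RING1B only, 2 had both, 2 had PCGF6 only and 4 had neither. Gene counts go by the windows of the starts, and neighbouring genes under a single wide peak are not separate sites. Hoxa3, Hoxa6, Hoxa7, Hoxa9 and Hoxa10 had RING1B only, though the RING1B peak of 43716 bp over them was shared. At the 2 genes with both, Hoxa4 and Hoxa5, the PCGF6 scores were 20.8 and 22.4, and no PCGF6 peak was listed there in KO crypts. Of 92 other homeobox genes, 62 had RING1B only, 8 had both and 0 had PCGF6 only. The 8 with both had PCGF6 scores from 12.4 to 39.5, all absent from the KO list. At Otx1, a forebrain regulator, the PCGF6 score was 14.3 in WT and no peak was listed in KO, while the AhCre RING1B scores were 825 (WT) and 703 (KO) and the Villin ones 454 (WT) and 314 (KO). Of 81 forkhead, Sox, T-box, Gata and bHLH genes, 36 had RING1B only, 12 both and 6 PCGF6 only. At Tal1, a blood cell regulator, the PCGF6 score was 14.3 in WT and none was listed in KO, while the RING1B score was 881 in WT and 677 in KO. Of the genes with RING1B, 33 of 33 Hox genes, 68 of 70 other homeobox genes and 46 of 48 of the third list also had a RING1B peak in the KO list. Over all genes that share was 46.4% of those with both antibodies and 65.7% of those with RING1B only. Median RING1B scores were 162, 103 and 60.7 in these lists, against 14.8 and 19.8 in those classes. In the strongest score quartile of RING1B, 91.9% of shared and 98.0% of RING1B-only peaks had a KO peak, so the lists lay near the share of strong peaks.

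The housekeeping lists showed the reverse. Of 79 genes of cytosolic ribosomal proteins, 70 had PCGF6 only, 3 both (Rpsa, Rpl10a, Rpl19) and 0 RING1B only. Of 32 proteasome genes, 25 had PCGF6 only, 1 both (Psma7) and 0 RING1B only. Of 51 replication and cell cycle genes that E2F factors control, 39 had PCGF6 only, 5 both and 0 RING1B only. E2f7 and E2f8, the repressor E2F genes, had PCGF6 scores of 35.5 and 14.3 and RING1B scores of 18.2 and 10.3. PCGF6 scores in the 3 lists had medians of 23.6, 21.8 and 20.4 where a peak was present, beside 20.4 over all genes with PCGF6 only.

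**Figure D2:**
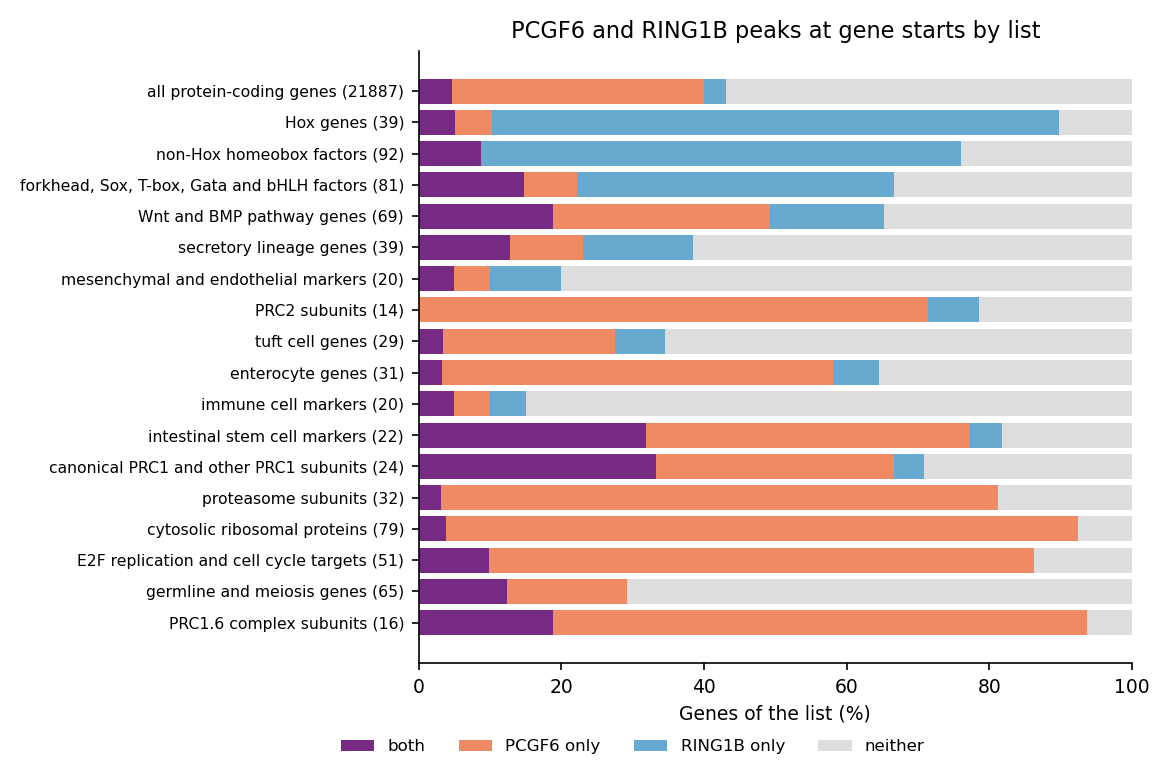
Genes of each list (y axis, list size in brackets) by the peaks at their starts in WT AhCre crypts, as percent of the list (x axis): both antibodies (purple), PCGF6 only (orange), RING1B only (light blue) or neither (grey). Hox and other homeobox genes are mostly RING1B only (31 of 39 and 62 of 92), ribosomal protein genes mostly PCGF6 only (70 of 79), against 3.02% and 35.3% of all genes.

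Germline genes split in another way. Of 65 germline and meiosis genes, 46 had neither antibody (70.8%), 11 had PCGF6 only (16.9%), 8 had both (12.3%) and 0 had RING1B only. Over all protein-coding genes the shares were 57.0% neither, 35.3% PCGF6 only, 4.7% both and 3.02% RING1B only. PCGF6 only was thus less frequent in this list than over all genes. Zcwpw1, a meiotic histone reader, had a PCGF6 score of 902 in WT and 112 in KO crypts and 528 in ESC. Its RING1B score was 11.4 in WT crypts and 114 in ESC, and the KO crypts also had a RING1B peak. Stag3, the meiotic cohesin subunit, had PCGF6 scores of 683 in WT, 165 in KO and 405 in ESC, and RING1B scores of 33.6, 16.7 and 105. Tdrkh, of the piRNA pathway, had PCGF6 scores of 466, 56.2 and 300 and RING1B scores of 29.3, 11.6 and 90.4 in the same order. At these 3 starts the PCGF6 scores were above 400 in WT crypts, and the RING1B scores there ran from 11.4 to 33.6. Dazl, a germ cell RNA-binding protein gene, had PCGF6 only in crypts (98.8 in WT, with a peak also in KO), and in ESC both a PCGF6 peak (205) and a RING1B peak (57.0).

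Genes of the complexes themselves carried these peaks as well. Of 16 PRC1.6 subunit genes, 12 had PCGF6 only, 3 both and 1 neither. The 3 were Mga (PCGF6 1678, RING1B 68.9), the deacetylase gene Hdac2 (313 and 13.6) and Ring1, the paralog of RING1B (27.9 and 10.3). E2f6 and Tfdp1, the E2F pair of the complex, had strong PCGF6 peaks without RING1B (254 and 318), and RING1B peaks of 34.8 and 45.3 in Villin WT crypts. Pcgf6 itself and Rnf2, the gene of RING1B, had PCGF6 only, with scores of 20.8 and 10.7 and no PCGF6 peak in the KO list. Of 24 genes of canonical and other PRC1 subunits, 8 had both, 8 PCGF6 only, 1 RING1B only and 7 neither. Cbx2 and Bmi1, subunits of canonical PRC1, were weak for PCGF6 (17.9 and 10.9) and strong for RING1B (293 and 189). Of 14 PRC2 subunit genes, 10 had PCGF6 only, 1 RING1B only (Epop), 0 both and 3 neither. PCGF6 only thus held 75% of the PRC1.6, 33.3% of the other PRC1 and 71.4% of the PRC2 list, beside 35.3% of all protein-coding genes. The share with both was 18.8%, 33.3% and 0%, beside 4.7% of all genes. RING1B only was 0%, 4.17% and 7.14%, beside 3.02%. The methyltransferase gene Ezh2 had a PCGF6 score of 98.8 in WT and 45.1 in KO.

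Genes of the crypt epithelium were spread over the classes. Of 22 stem cell markers, 7 had both, 10 PCGF6 only, 1 RING1B only (Sox9) and 4 neither. These were 31.8% with both, 45.5% with PCGF6 only and 4.55% with RING1B only. Over all protein-coding genes the shares were 4.7%, 35.3% and 3.02%. Lgr5, the crypt base stem cell receptor, had a PCGF6 score of 18.9 and a RING1B score of 13.2 in WT, and neither in KO AhCre crypts. In Villin crypts its RING1B peak was absent from the WT list and scored 19.9 in the KO list. Tert, the telomerase gene, had scores of 24.4 and 10.2 in WT and no peak of either antibody in KO AhCre crypts, and RING1B scored 15.1 in WT Villin crypts with no KO peak. Axin2, Slc12a2 and Ephb3 likewise had weak peaks of both antibodies in WT (scores from 10.9 to 16.1) and none in KO. Over the whole marker list, 3 of the 8 genes with RING1B and 6 of the 17 with PCGF6 had a peak of that antibody in KO. Among all genes with both antibodies these shares were 46.4% for RING1B and 35.9% for PCGF6. The marker counts also include genes with a single antibody. Over all genes, the RING1B share was 65.7% with RING1B only, and the PCGF6 share was 33.4% with PCGF6 only. Of the 69 Wnt and BMP pathway genes, 13 had both, 21 PCGF6 only, 11 RING1B only and 24 neither. Both (18.8%) and RING1B only (15.9%) were above the 4.7% and 3.02% of all genes. PCGF6 only (30.4%) was near the 35.3% of all genes. The ligand genes Wnt1, Wnt3, Wnt5a, Wnt6, Wnt9a, Wnt10b and Wnt11 and Bmp4 had RING1B only. Wnt9b and Wnt10a had both, as did the ligand genes Bmp3 and Bmp7, while 5 receptor genes (Fzd3, Fzd4, Fzd7, Fzd9, Bmpr1a) had both. Fzd7, a stem cell Wnt receptor, had a PCGF6 score of 197 in WT and 36.1 in KO, and a RING1B score of 12.3 in WT and none in KO AhCre crypts.

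In the other lists of the lineage genes, 24 of 39 secretory, 19 of 29 tuft cell and 11 of 31 enterocyte genes had neither antibody, beside 57.0% of all protein-coding genes. Enterocyte genes had PCGF6 only in 17, RING1B only in 2 (Gata4, Prdm1) and both in 1 (Gata6). Secretory genes had RING1B only in 6, both in 5 and PCGF6 only in 4. Atoh1, the master regulator of secretory fate, had a PCGF6 score of 11.8 in WT and none in KO, and a RING1B score of 147 in WT and 127 in KO. Of the tuft cell genes, 7 had PCGF6 only, among them the master regulator Pou2f3 (14.3), 2 had RING1B only and 1 both. PCGF6 only thus held 54.8% of enterocyte, 10.3% of secretory and 24.1% of tuft cell genes, beside 35.3% of all genes. RING1B only held 6.45%, 15.4% and 6.90%, beside 3.02%, and both held 3.23%, 12.8% and 3.45%, beside 4.7%. Of markers of cells outside the epithelium, 16 of 20 mesenchymal and endothelial and 17 of 20 immune genes had neither, again beside 57.0% of all genes.

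The other lists set the classes apart. H2AK119ub1 of WT AhCre crypts covered 77.9% of RING1B-only peaks (75.4 to 80.3), 58.9% of shared RING1B peaks (56.1 to 61.6) and 9.90% of PCGF6-only peaks (9.44 to 10.4). The first difference was also found within score quartiles of RING1B, with 66.8% and 39.7% in the weakest, and 89.2% and 78.8% in the strongest. Scores and widths were not matched within a quartile. In the strongest, RING1B-only peaks had a median score of 50.5 and width of 3548.5 bp. Shared ones there had 58.8 and 3097 bp with PCGF6 scores below 27.9, and 41.1 and 2075 bp with higher ones. In KO crypts H2AK119ub1 covered 82.3% of RING1B-only and 58.1% of shared peaks, and in Villin WT crypts 68.2% and 48.5%. The RING1B list of Villin WT crypts, from another library, held 81.9% of RING1B-only peaks, 86.6% of shared RING1B peaks and 10.4% of PCGF6-only peaks. Within the PCGF6-only class that last share was 3.57% in the weakest PCGF6 score quartile and 24.3% in the strongest.

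CTCF and cohesin were more frequent where PCGF6 was present. CTCF of Villin WT crypts lay at 36.7% of shared RING1B peaks (34.0 to 39.5), 18.7% of RING1B-only peaks (16.5 to 21.1) and 31.7% of PCGF6-only peaks (31.0 to 32.4). RAD21 lay at 40.1%, 14.3% and 33.3% of them. At gene starts alone RAD21 was at 39.2% of shared and 15.7% of RING1B-only peaks, and away from starts at 43.7% and 12.2%. ESC PCGF6 was present at 67.5% of shared RING1B peaks, 38.9% of RING1B-only peaks and 20.8% of PCGF6-only peaks. ESC RING1B was present at 61.8%, 67.1% and 8.76%. Of the 14 other lists, none had a peak at 5319 of the 15927 PCGF6-only peaks (33.4%), at 40 of 1140 RING1B-only peaks (3.51%) and at 17 of 1228 shared RING1B peaks (1.38%).

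**Figure D3:**
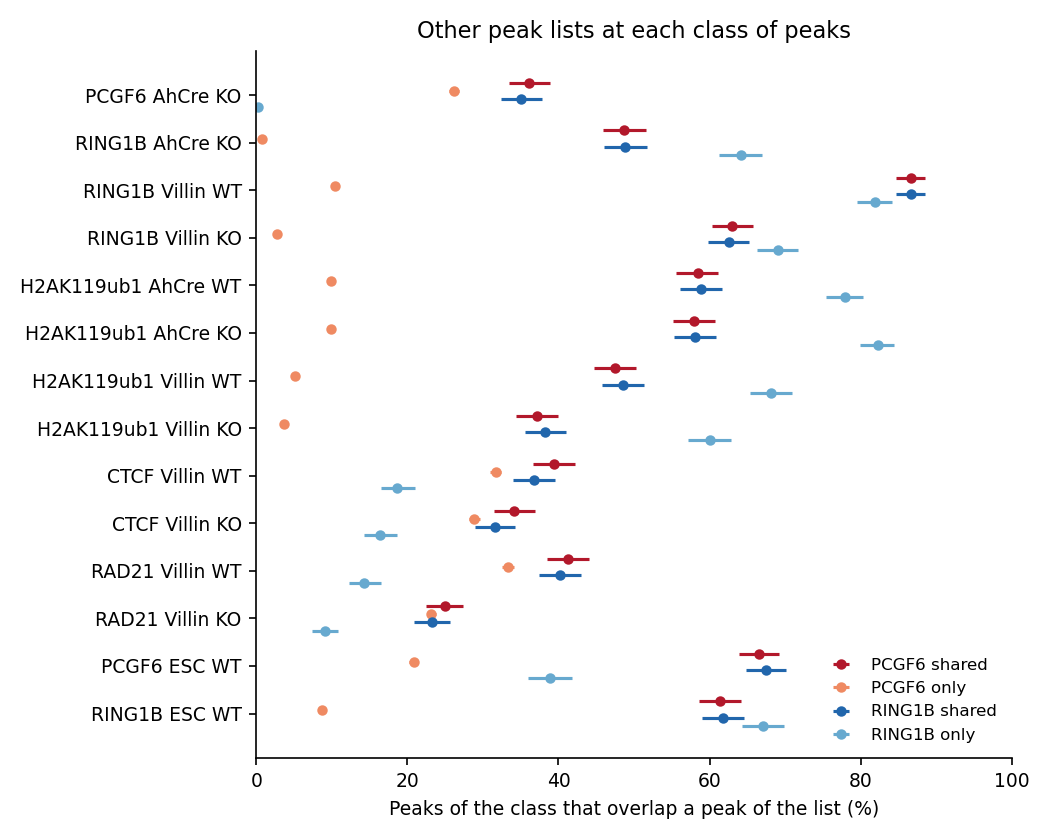
Share of peaks (%, x axis) in each class that overlap a peak of each of the 14 other lists (y axis), for shared PCGF6 (dark red), PCGF6-only (orange), shared RING1B (dark blue) and RING1B-only peaks (light blue); bars are 95% binomial intervals. RING1B-only peaks are highest for H2AK119ub1 (77.9% in WT AhCre crypts) and lowest among the 4 classes for CTCF and RAD21 (18.7% and 14.3% in WT).

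The KO lists show which places also had a peak in crypts labelled Pcgf6 KO. Of shared RING1B peaks 51.1% were absent from the KO RING1B list, against 35.9% of RING1B-only peaks. The difference held in every score quartile of RING1B, with 80.8% against 72.5% in the weakest, and 8.11% against 2.05% in the strongest. It was graded by the PCGF6 score, divided at its median of 27.9 over shared RING1B peaks. RING1B was absent in KO at 35.9% of peaks with no PCGF6 (33.1 to 38.7), at 46.9% with weaker PCGF6 (42.9 to 50.9) and at 55.3% with stronger PCGF6 (51.3 to 59.3), while median RING1B scores were 17.2, 15.0 and 15.4. In the strongest RING1B quartile the shares were 2.05%, 1.48% and 15.3%, so there only the peaks with stronger PCGF6 stood apart. Those groups were not matched within the quartile. Their median RING1B scores were 50.5, 58.8 and 41.1, and their median widths 3548.5, 3097 and 2075 bp. The Villin RING1B lists, sorted by the same AhCre PCGF6 peaks, gave 41.9% of 1658, 55.4% of 1212 and 69.1% of 1533 peaks, and in the strongest quartile 3.82%, 3.81% and 34.5%. Median scores in that Villin quartile were 38.9, 32.5 and 32.7, and median widths 2759, 1901.5 and 1246 bp. Both Cre lines thus had the same order over all peaks, and in the strongest quartile the same group stood apart.

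**Figure D4:**
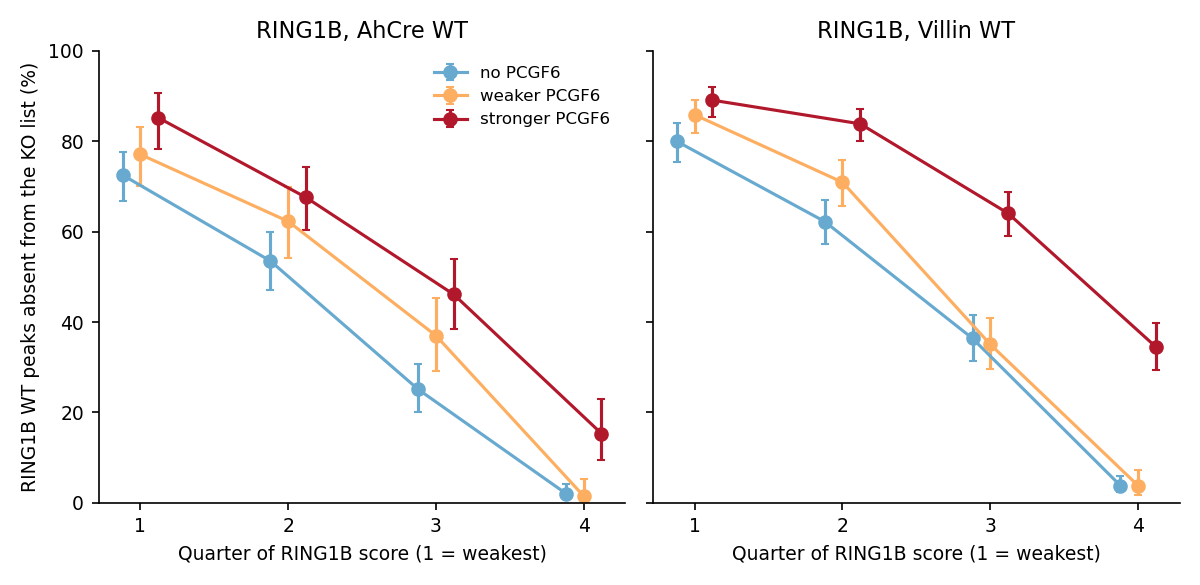
Share of WT RING1B peaks (%, y axis) absent from the KO RING1B list, by quartile of the WT RING1B score (x axis) and by PCGF6 in WT AhCre crypts (none, light blue; score below the median of 27.9, orange; at or above it, dark red), for AhCre (left) and Villin crypts (right); bars are 95% binomial intervals. In the strongest quartile the peaks with stronger PCGF6 are at 15.3% and 34.5%, all other groups there below 4%. Groups within a quartile are not matched for score or width.

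PCGF6 peaks themselves were absent from the KO PCGF6 list at 63.8% of shared and 73.8% of PCGF6-only places. Within quartiles of the PCGF6 score this order was not kept: in the second the absent shares were 97.7% of shared and 91.8% of PCGF6-only peaks, in the third 88.6% and 74.1%, and in the strongest 29.8% and 28.1%. So 36.2% of shared PCGF6 peaks still met a PCGF6 peak in crypts labelled KO. The cause was not tested.

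Within the 1255 pairs, the KO lists differed with the balance of the antibodies. Pairs were ordered by the percentile of the RING1B score minus that of the PCGF6 score and cut into equal parts. In the 418 pairs that leaned most to PCGF6 (median PCGF6 score 55.8, RING1B 11.9), RING1B was absent in KO at 76.8%, PCGF6 at 34.9%, and H2AK119ub1 was present at 40.4%. In the 419 pairs that leaned most to RING1B (15.2 and 25.1), RING1B was absent at 25.1%, PCGF6 at 94.0%, and H2AK119ub1 was present at 78.0%. The scores used for this order are also those that decide whether a peak can pass the floor of 10 in KO, so the split describes the pairs and is not independent of score. By KO lists, 354 pairs kept neither peak, 444 only RING1B, 277 only PCGF6 and 180 both. H2AK119ub1 was present at 51.7%, 81.3%, 34.7% and 60.6% of them.

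**Figure D5:**
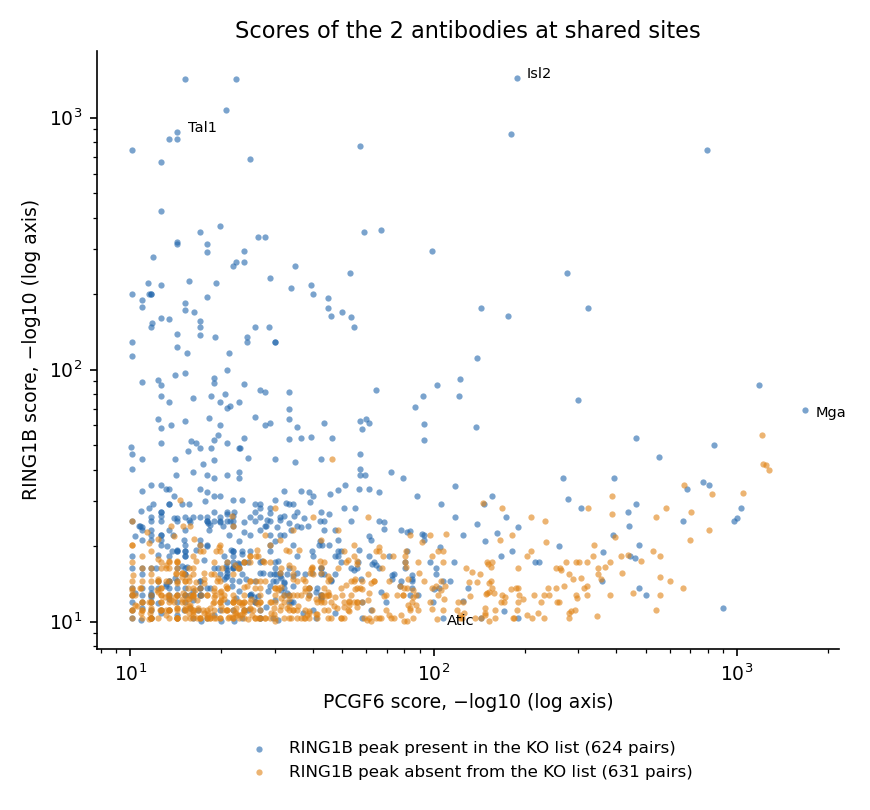
PCGF6 score (x axis) and RING1B score (y axis) of the 1255 overlapping pairs in WT AhCre crypts, both −log10 on log axes; each point is a pair, blue where the RING1B peak met a peak of the KO RING1B list (624 pairs) and orange where it did not (631 pairs). Orange points lie along the bottom at all PCGF6 scores, and points high on the y axis such as Isl2 and Tal1 are blue.

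The 5 pairs that leaned most to PCGF6 lay at Paics and Ppat, Atic, Hspg2 and Tcam1 and near Ndufb4. The pair at Paics and Ppat had a PCGF6 score of 153 in WT and 45.9 in KO, 63.0 in ESC, and a RING1B score of 10.0 in WT, none in KO and none in ESC. Atic had a PCGF6 score of 103 in WT and 35.4 in KO, and a RING1B score of 10.3 in WT and none in KO. Hspg2, the gene of the basement membrane protein perlecan, had PCGF6 scores of 81.6 and 12.3, and Tcam1 had 211 and 35.4. The peak near Ndufb4, a respiratory chain gene, had 231 and 46.3. RING1B scores at these places were again 10.0 to 10.3 in WT, with no peak in KO AhCre crypts. In ESC, RING1B scored 26.7 at Tcam1 and had no peak at Hspg2 or near Ndufb4. The pair that leaned most to RING1B lay near Eri3, with RING1B scores of 745 in WT and 542 in KO and a PCGF6 score of 10.1 in WT and none in KO. After it, Meis2 (RING1B 199 in WT, 150 in KO), Sim1 (129 and 171), Sox21 (113 and 159) and Bmi1 (189 and 136) had PCGF6 scores of 10.1 to 10.9 in WT and none in KO. Scores of the WT and KO lists depend on the depth of each library, so these values are given side by side only.

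The pairs ranked high for both antibodies began with a peak far from any start (nearest gene Lrrc4c, chromosome 2, 98666712 to 98667564), with PCGF6 scores of 793 in WT and 1458 in KO and RING1B scores of 743 and 967. Isl2, a motor neuron regulator, followed with a PCGF6 score of 188 in WT and 27.1 in KO, and the highest RING1B score of the list, 1437 in WT and 1213 in KO. Its PCGF6 peak lay 2692 bp from the start, so by gene windows Isl2 counts as RING1B only. Cbx8, a gene of canonical PRC1, held 2 of the 10 best pairs, with PCGF6 scores of 324 and 143 in WT and 69.1 and 29.0 in KO under a single RING1B peak (176 and 79.8). A second Mga pair, inside the annotated gene and 23132 bp from its listed start (chromosome 2, 119871784 to 119874096), had a PCGF6 score of 1180 in WT and 325 in KO and a RING1B score of 86.8 and 20.4. In 12 pairs the PCGF6 score was higher in crypts labelled KO than in WT, and the cause was not tested. Of these, 9 lay side by side on chromosome 9 between 3000096 and 3038046, farther than 50 kb from any protein-coding gene, with PCGF6 scores of 28.4 to 122 in WT and 40.5 to 182 in KO, and higher RING1B scores in KO as well. The Lrrc4c peak and one near Gm2244 (274 and 414) were of the same kind, and Bmpr1a was 11.8 and 11.9.

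Pairs with both peaks absent in KO were led by Rab8b (PCGF6 46.4, RING1B 44.0), a vesicle transport gene, a peak 27017 bp from Hlf (109 and 22.2), Dvl2 (40.1 and 26.1) and Car2, a carbonic anhydrase gene (48.4 and 23.0). Dvl2, whose promoter above holds 3 E-boxes, had no H2AK119ub1 peak, while Rab8b, the Hlf peak and Car2 had one (scores 12.2 to 16.1).

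The strongest PCGF6-only peak lay at Gdf15, a stress hormone gene (chromosome 8, 70629482 to 70632485). Its PCGF6 score was 754 in WT and 331 in KO AhCre crypts and 406 in ESC, with no RING1B peak in any AhCre, Villin WT or ESC list. Med31 had 635 in WT, 198 in KO and 227 in ESC, and Uqcc2, of respiratory complex assembly, had 584, 98.4 and 204. At both a RING1B peak was listed in Villin WT crypts (35.2 and 37.9) and in ESC (18.4 and 30.4). Nemp1, Nipsnap2, Stx4a, Plec, Ctif, Sec23ip and Usp10 completed the 10, with scores from 580 to 366 in WT and 215 to 74.7 in KO. None of the 10 had H2AK119ub1 in WT AhCre crypts, and all 10 kept a PCGF6 peak in KO. In the strongest score quartile of PCGF6, 11.1% of PCGF6-only peaks had H2AK119ub1 and 71.9% kept a PCGF6 peak.

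All 10 of the strongest RING1B-only peaks also had a RING1B peak in KO crypts. The first covered Tlx2, a homeobox gene of enteric neurons, and Dqx1, with RING1B scores of 891 in WT and 721 in KO AhCre crypts, 837 in Villin WT crypts and 335 in ESC. Hmx2 had 785, 597, 569 and 589, and Dmbx1 had 737, 634, 556 and 366. Runx3 had 597 in WT and 423 in KO AhCre crypts, 380 in Villin WT crypts and 217 in ESC. Pcca, Prss16, Shisa3, Igf2bp1 and Slc32a1 were also among the 10 strongest. All 10 had H2AK119ub1 in WT crypts (scores 29.3 to 68.1), and 8 of the 10 had a PCGF6 peak in ESC (scores 11.3 to 37.8), Runx3 and Prss16 being the exceptions. Among RING1B-only peaks of the strongest score quartile, 98.0% had a RING1B peak in KO, 89.2% had H2AK119ub1 and 48.5% had PCGF6 in ESC.

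Promoter sequence differed between the classes. Windows of starts with both antibodies had a median of 8.5 CpG per 100 bases, those with PCGF6 only 7.33, with RING1B only 7.33, with neither 1.67, and all windows 4.33. The E-box was found in 13.5% of windows with both (11.3 to 15.9), 12.2% with PCGF6 only (11.5 to 13.0), 5.96% with RING1B only (4.19 to 8.20) and 7.84% of all 21263 windows. The E2F site was in 11.7%, 9.62%, 6.30% and 5.95% of them. The ETS site was in 10.1% with both, 20.9% with PCGF6 only, 4.77% with RING1B only and 11.6% of all. The NRF1 site was in 3.51%, 6.55%, 2.56% and 3.52%. In the most CpG-rich quartile of windows the E-box was in 15.4% with both, 13.6% with PCGF6 only, 8.54% with RING1B only and 8.14% with neither.

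E-boxes also went with the PCGF6 score. Among all windows with a PCGF6 peak, 7.10% of the weakest score quartile held an E-box, 10.5% of the second, 13.2% of the third and 18.6% of the strongest. The ETS site stayed between 17.5% and 21.8% over the same quartiles. Among windows with both antibodies it was in 5.23% of the weakest and 15.8% of the strongest quartile. In the strongest quartile the E-box was in 17.3% of windows with both (13.7 to 21.5) and 18.9% of those with PCGF6 only (17.1 to 20.9), a difference within counting error. The Atic, Med31 and Sec23ip windows above show the E-box close to the start, and the Mga window, with the strongest PCGF6 peak of all, holds none of the 4 motifs.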

How the data were processed

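Crosslinked chromatin of crypts and ESC was profiled by ChIP-seq, 1 library per group. Tools listed without a role in the submitters' processing notes are MACS2 2.1.1 and Bowtie, versions 1.1.2 and 1.2.2, beside the builds hg38, dm6 and mm10. Per the labels, a WT crypt input was the reference for peak calling. The deposited score of each peak is on a −log10 scale of p or q, per the values, and read filters or calling settings are not given in the sources. Peaks of chromosomes 1 to 19, X and Y were used as deposited, with starts made 1-based, and 2 PCGF6 peaks and 1 RING1B peak were left out. Overlap meant at least 1 bp. Gene starts came from RefSeq promoter windows of GRCm38.p6, which cover 17492 of 21887 protein-coding genes and no gene of chromosome 18, and both ends were used for the other 4395. Named peaks and genes were the 10 best pairs by mean rank, the 10 strongest and 5 widest peaks of each class, the pairs with the largest rank difference, the least overlap, or the best rank with both peaks present or absent in KO, members of 17 gene lists, Pcgf6 and Rnf2. Members and lists were chosen with earlier results of these data known. Deciles and quartiles are of the score within a list, or of CpG content over windows. Alternatives were a stricter and a looser overlap, a score of 20, a shortened PCGF6 list, the Villin RING1B list and other gene windows. Overlaps were checked against bedtools 2.31.1 (0 of 5 list pairs differed) and on simulated peaks, where 100 of 100 overlaps of 1 bp were found. Scripts ran in Python 3.11.15 with scipy 1.17.1, matplotlib 3.10.9, pandas 2.3.3 and numpy 2.4.6. Input samples were not used here. In the ESC labels 1 description line exchanges the antibodies, and titles and antibody tags were followed. A few named items are not reported here.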

Additional observations from a re-analysis of the deposited data

How the results depend on the processing

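No paired analysis was possible because every group was 1 library, and leaving out a replicate was not possible for the same reason. The shares of peaks and of E-box windows that left the 95% interval of the reported one, and the gene counts that moved by over 1.5 times, are given below. Of the 8 score and width medians, 8 moved with a score of 20, 6 with the shortened list and 7 with the Villin list. Requiring an overlap of 50% of the smaller peak gave shared shares of 6.80% (PCGF6) and 49.0% (RING1B), and a gap of up to 1 kb gave 7.63% and 54.1%. With scores of 20 or more, 3.41% of PCGF6 and 27.9% of RING1B peaks were shared. Peaks at gene starts were then 65.4% (PCGF6 shared), 54.8% (PCGF6 only), 73.8% (RING1B shared) and 63.9% (RING1B only). H2AK119ub1 was then at 72.0%, 13.5%, 74.2% and 86.4% in the same order, and absence from KO was 49.6%, 46.7%, 16.8% and 7.29%. Genes with both, PCGF6 only and RING1B only were then 188, 4407 and 438. With the PCGF6 list shortened to the length of the RING1B list, 17.6% of PCGF6 and 17.9% of RING1B peaks were shared, and genes were 353, 1215 and 1336. Peaks at starts were then 54.9% (PCGF6 only) and 67.6% (RING1B only), H2AK119ub1 was at 52.6%, 12.1%, 49.4% and 72.1%, and absence from KO was 16.6%, 12.4%, 60.5% and 40.2%. With Villin RING1B (and its own KO list), 15.9% of PCGF6 and 62.3% of RING1B peaks were shared, and 2252 genes had both. Starts were then 41.9% (PCGF6 only) and 75.9% (RING1B shared), H2AK119ub1 was at 37.7%, 8.80%, 35.7% and 72.5%, and absence from KO was 53.3%, 76.8%, 63.0% and 41.9%. A window of 5 kb put 85.8%, 54.5%, 86.4% and 71.1% at starts. Either gene end for every gene, chosen after seeing the data, gave 72.2% (PCGF6 shared), 43.8% (PCGF6 only) and 75.8% (RING1B shared). Where the peak had to touch the promoter window itself, the E-box was in 16.2% of windows with both and 13.2% with PCGF6 only, and the ETS site in 21.9% with PCGF6 only. Leaving out the 12 pairs with a higher PCGF6 score in KO, also chosen after seeing the data, moved none of the 17 shares and counts or 8 medians it was run on by more than their intervals. In every alternative run, shared peaks lay at starts more often than the others (8 alternatives), RING1B-only peaks had H2AK119ub1 more often and were absent from KO less often than shared ones (6), and shared PCGF6 peaks scored higher (6). The order of PCGF6 absence from KO, 63.8% shared and 73.8% PCGF6 only, turned with a score of 20 and with the shortened list. The cause of these moves was not tested, beyond the fewer peaks that a score of 20 and the shortened list leave.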
